A study of Mus musculus with 12 samples.

Results

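Fstl1, Lrrc15, Stmn4 and Fabp4 are 4 protein-coding mouse genes that were chosen by a wide difference in array signal between cells given wild-type DICER1 and cells given either of 2 DICER1 mutants. The values used for the choice are the gaps of D1709N cells and of G1809R cells to WT cells on these same arrays, so those gaps are given here as a description, with no test. They are 4 of 24184 genes or transcripts measured above background, of which 14732 had a RefSeq symbol, and 5 probes of the array represent them. The data come from DKO172 cells, a mouse line that, by its labels, came from a tumor of the fallopian tube in a female. All cells carried a plasmid of the pLD-hygro-EnVM type and were selected in hygromycin. The groups were cells given DICER1 D1709N, cells given DICER1 G1809R, cells given wild-type DICER1 (WT) and cells given GFP in place of DICER1, each at 108 h after transfection and each with 3 arrays. DKO172 is 1 line, the cells of a well were a transfected and selected pool, and its own Dicer1 genotype, the species of the DICER1 insert and the promoter that drove it are not given in the sources used here. Nothing in the labels says that replicates came from separate cultures, so p-values measure the spread between these arrays, which may be technical.

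DICER1 is the ribonuclease that cuts hairpin precursors into microRNAs, and its RNase IIIb domain, where D1709 and G1809 lie, makes the cut that frees the strand of the 5' arm. The 4 genes share no family. Fstl1 encodes follistatin-like 1, a secreted glycoprotein of the follistatin and SPARC family that binds bone morphogenetic proteins (BMPs) and was first cloned from mouse osteoblast-like cells as a transcript raised by TGF-beta. Lrrc15 encodes a leucine-rich repeat protein of the plasma membrane, known from mesenchymal cells and from the fibroblasts of tumours, where TGF-beta raises it. Stmn4 encodes a stathmin, a tubulin-binding protein that holds tubulin out of microtubules, and is known mainly from neurons. Fabp4 encodes the fatty acid binding protein of adipocytes, a cytoplasmic lipid carrier also made by macrophages and by the endothelium of small vessels.

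The promoter set used here held windows for Fstl1 and Lrrc15 and none for Stmn4 or Fabp4. The bases around the start sites of Fstl1 and Lrrc15 are therefore shown. RefSeq promoter windows of GRCm38.p6, from 250 bases before to 50 bases after the start of the gene, were used for these genes. The Fstl1 window is chr16:37776805-37777104 on the plus strand and the Lrrc15 window is chr16:30283205-30283504 on the minus strand, each written 5' to 3' on the strand of its gene. Capitals mark the GC box letters GGGCGG, read on either strand, and the AP-1 letters TGANTCA.
Fstl1: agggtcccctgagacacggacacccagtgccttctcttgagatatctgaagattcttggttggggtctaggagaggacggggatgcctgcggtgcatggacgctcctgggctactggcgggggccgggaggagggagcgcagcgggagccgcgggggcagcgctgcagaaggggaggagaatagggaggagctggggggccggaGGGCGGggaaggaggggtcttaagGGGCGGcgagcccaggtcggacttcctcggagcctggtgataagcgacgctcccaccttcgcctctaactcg
Lrrc15: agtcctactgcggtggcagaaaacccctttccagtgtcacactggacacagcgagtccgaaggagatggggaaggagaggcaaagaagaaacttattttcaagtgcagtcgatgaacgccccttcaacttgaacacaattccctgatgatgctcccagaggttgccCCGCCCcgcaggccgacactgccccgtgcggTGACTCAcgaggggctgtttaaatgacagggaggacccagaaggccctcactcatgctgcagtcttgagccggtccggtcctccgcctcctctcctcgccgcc
The Fstl1 window held 2 GC boxes, with first bases at -46 and -22 from the start site, and 66.7% G or C. The Lrrc15 window held 1 GC box at -84 and 1 AP-1 match at -53, and 58.7% G or C, against a median of 52.7% over all 32851 promoter windows. Of those windows, 35.7% held a GC box and 7.81% an AP-1 match, so the GC box is a common feature. Neither window held the TATA box letters TATAAA (in 13.6% of all windows), the letters CCAAT (37.4%) or the SMAD letters CAGAC (49.6%), each searched on both strands. These motifs do not overlap in the windows shown, and a match is a stretch of letters, not a measured binding site.

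Levels are given as the processed intensity of the probe and as a log2 level from which the array's own 75th percentile was subtracted. That percentile lay between 1036 and 1462 intensity units. Replicate 1 of every group was hybridised on slide 1 and replicates 2 and 3 on slide 2. The share of probes well above background ran from 49.5% to 82.7%, highest in WT replicate 1, and arrays of a group correlated at 0.977 to 0.993. Of 13 epithelial markers of the oviduct and Müllerian duct, 7 in D1709N, 11 in G1809R, 10 in WT and 10 in GFP cells were above background on all 3 arrays of the group. Of 8 mesenchymal markers, 6 in D1709N cells and 7 in each other group were. Fap, a marker of tumour fibroblasts, was above background on no D1709N, G1809R or GFP array and on at least 1 WT array. In all these bulk samples, fewer cells with a transcript and less transcript per cell cannot be told apart.

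**Figure D1:**
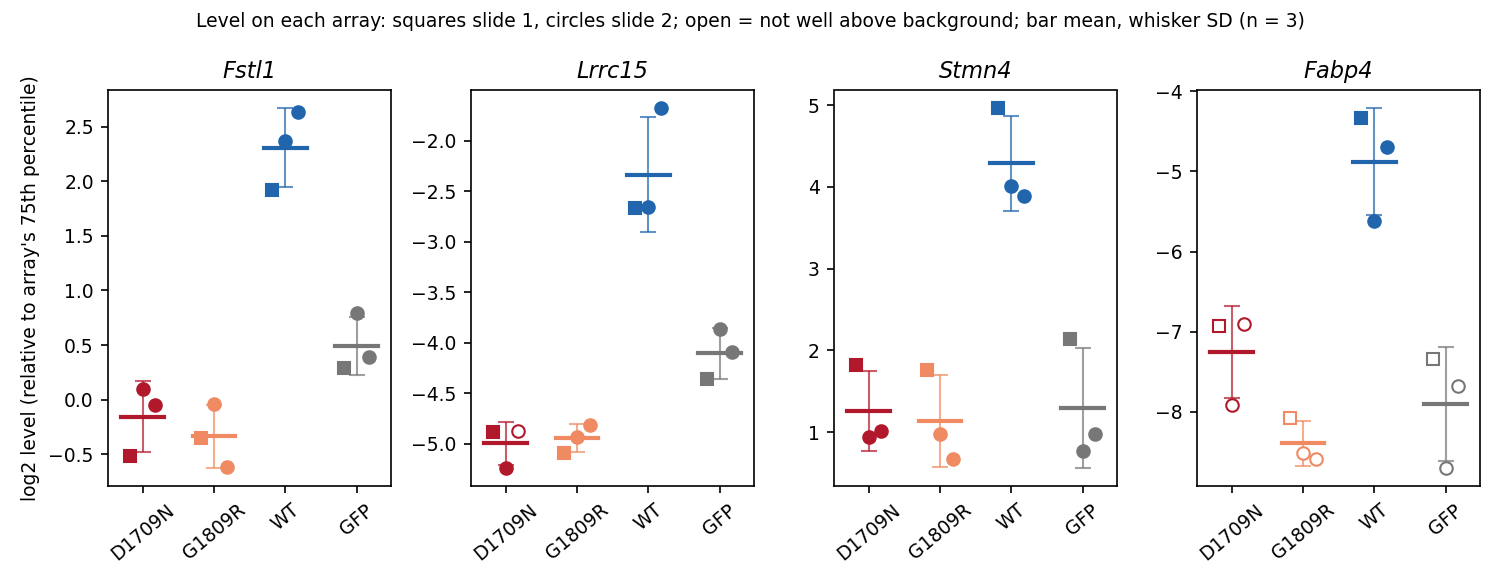
Log2 level of each gene, with the array's 75th percentile set to 0 (y axis), in D1709N, G1809R, WT and GFP cells, with squares for slide 1, circles for slide 2, open symbols for arrays not well above background, bars for the mean and whiskers for the SD of 3 arrays. The 3 WT arrays lie above the 9 others in every panel, and in Fstl1 and Lrrc15 both mutants also lie below GFP.

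Fstl1, the secreted BMP-binding protein, was lowest in cells given the mutants, intermediate with GFP and highest with WT. Its intensity was 904, 1232 and 1110.0 in D1709N cells, 1087, 1146 and 784 in G1809R cells, 3933, 7552 and 7375 in WT cells and 1592, 2307 and 1763 in GFP cells. All WT arrays exceeded all others, and all 6 mutant arrays lay below the lowest GFP array. The mean log2 level was -0.16 ± 0.32 in D1709N, -0.34 ± 0.29 in G1809R, 2.31 ± 0.36 in WT and 0.49 ± 0.26 in GFP cells (SD, n = 3 each). Set against WT, Fstl1 was lower by 5.52-fold in D1709N cells (log2 -2.47, SE 0.24) and by 6.27-fold in G1809R cells (log2 -2.65, SE 0.24). Arrays paired by replicate number gave -2.44, -2.27 and -2.68 for D1709N and -2.28, -2.41 and -3.25 for G1809R, so each pair showed at least a drop by 2.27 on the log2 scale.

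Fstl1 was 3.53-fold higher in WT than in GFP cells (log2 1.82, 95% interval 1.28 to 2.36), and the groups were 1.14 log2 units apart at their nearest arrays. The limma test over all genes gave an adjusted p of 0.00657, and Fstl1 ranked 167th among the increases. The WT arrays of this comparison also entered the choice of the gene, so the test is not independent of it. With slide as a block the adjusted p was 0.00130, within slide 1 the difference of single arrays was 1.63, and within slide 2, with 2 arrays a group, it was 1.91 (limma adjusted p = 0.0694).

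Lrrc15, the leucine-rich repeat membrane protein, had the same order of groups at a dim probe. Its intensity was 43.7, 30.5 and 39.3 in D1709N cells, 40.8, 38.7 and 43.0 in G1809R cells, 163, 231 and 371 in WT cells and 63.4, 92.1 and 79.2 in GFP cells. The mutant arrays, the GFP arrays and the WT arrays formed 3 ranges that did not overlap. Among mesenchymal markers Fap was above background on some but not all WT arrays and on no other array. The part of Fap in the Lrrc15 values was not tested. The summed level of the 8 mesenchymal markers was 96.4 to 188 in D1709N, 104 to 173 in G1809R, 116 to 204 in WT and 109 to 201 in GFP cells. Of these, 7 were tested. With the replicate number as a block, 2 were called higher and 3 lower in each mutant than in WT cells. Among all genes 15.5% (D1709N) and 12.7% (G1809R) were called. The block called 2 markers higher and 2 lower in WT than in GFP cells, against 17.8% of all genes. The Lrrc15 probe was not well above background on D1709N replicate 3, while it was on the other 11 arrays. Mean log2 levels were -5.0 ± 0.21 in D1709N, -4.94 ± 0.14 in G1809R, -2.34 ± 0.57 in WT and -4.10 ± 0.25 in GFP cells (SD, n = 3 each). Lrrc15 was 6.32-fold lower in D1709N than in WT cells (log2 -2.66, SE 0.26) and 6.09-fold lower in G1809R than in WT cells (log2 -2.61, SE 0.26). With normexp background correction followed by quantile normalization each of these gaps was -1.41.

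Between WT and GFP cells Lrrc15 differed by 3.39-fold (log2 1.76, 95% interval 1.18 to 2.34, limma adjusted p = 0.00969), again with WT arrays that had entered the choice. That call depended on the scaling. The adjusted p was 0.169 after quantile normalization, 0.158 with the authors' deposited table of log2 values and 0.0984 with normexp, at log2 differences of 1.57, 1.57 and 1.02. With slide as a block it was 0.00388, the slide 1 arrays differed by 1.69, and slide 2 alone gave 1.80 (adjusted p = 0.1003).

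Stmn4, the neuronal stathmin, was well above background in every group and highest in WT cells, and the mutants and GFP shared 1 lower range. The main probe gave 4569, 2217 and 2325 in D1709N cells, 4706, 2338 and 1917 in G1809R cells, 32142, 23592 and 17681 in WT cells and 5736, 2280.4 and 2647 in GFP cells. In each group the slide 1 array was the highest of the 3. The mean log2 level was 1.26 ± 0.49 in D1709N, 1.14 ± 0.56 in G1809R, 4.29 ± 0.58 in WT and 1.30 ± 0.74 in GFP cells (SD, n = 3 each). Stmn4 was lower than in WT by 8.14-fold in D1709N cells (log2 -3.03, SE 0.45) and by 8.87-fold in G1809R cells (log2 -3.15, SE 0.45). Same-number pairs spread less than the groups did, from -3.13 to -2.88 for D1709N and from -3.22 to -3.03 for G1809R.

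A second Stmn4 probe gave 1817 to 3719 in D1709N cells, 1451 to 3987 in G1809R cells, 14554 to 27677 in WT cells and 1990.2 to 4966 in GFP cells. Its gaps to WT were -3.10 for D1709N and -3.24 for G1809R, close to those of the first probe. Stmn4 was 7.95-fold higher in WT than in GFP cells (log2 2.99, 95% interval 1.99 to 3.99, limma adjusted p = 0.0106), and by the second probe the log2 difference was 3.00 (adjusted p = 0.0127). Leaving out GFP replicate 3 ended the call (adjusted p = 0.0583 at a log2 difference of 2.83). The call held with slide as a block (adjusted p = 2.2e-05) and within slide 2 (3.08, adjusted p = 0.00871), and the slide 1 arrays differed by 2.82. As for the others, the WT arrays had entered the choice of the gene. Of 6 neuronal markers, 4 in D1709N, 5 in G1809R, 4 in WT and 5 in GFP cells were above background on all 3 arrays, and their summed level was 12.3 to 17.6, 12.6 to 16.7, 11.5 to 14.6 and 10.6 to 15.7 in that order. Dcx was the 1 marker above background on some but not all WT arrays and on no other array. The part of Dcx was not tested.

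Fabp4, the lipid carrier, was measurable only in WT cells. Its intensity was 10.6, 4.81 and 9.66 in D1709N cells, 5.18, 3.24 and 3.14 in G1809R cells, 51.7, 29.6 and 46.2 in WT cells and 8.04, 3.21 and 6.62 in GFP cells. The 3 WT arrays were well above background and the 9 others were not, so the gene entered the analysis only through WT, and its tests are left out. Where a group was not well above background, a fold is the WT mean over a floor, the mean over the dim arrays of the higher of the probe's own level and the lowest level well above background on that array. By this floor Fabp4 was 1.46-fold lower in D1709N and 2.45-fold lower in G1809R than in WT cells, and 2.23-fold higher in WT than in GFP cells. A fold by this floor is not a strict minimum, as the smaller gaps under normexp below show. The measured mean log2 levels were -7.25 ± 0.57 in D1709N, -8.39 ± 0.28 in G1809R, -4.88 ± 0.67 in WT and -7.90 ± 0.71 in GFP cells (SD, n = 3 each). Under normexp with quantile normalization the measured gaps to WT shrank to -0.38 in D1709N and -0.55 in G1809R cells, and WT exceeded GFP by 0.53. No fold is given among the 3 dim groups.

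Markers of the cell types known for Fabp4 were measured on the same arrays. Of 7 endothelial markers, Cdh5 and Emcn were above background on no array of any group and Tek on none outside WT. The summed level of that list, in units of the array's 75th percentile, was 10.2 to 19.1 in D1709N, 10.3 to 19 in G1809R, 15.6 to 25.4 in WT and 14.7 to 26.2 in GFP cells. Of 6 adipocyte markers, 1 in D1709N, 1 in G1809R, 1 in WT and 2 in GFP cells were above background on all 3 arrays, with sums of 0.152 to 0.248, 0.141 to 0.310, 0.152 to 0.393 and 0.171 to 0.287 in that order of groups. Of 6 macrophage markers on the array 3 were above background on all 3 arrays of every group, and their sums ran from 14.7 to 28.2. Lyz2, a macrophage lysozyme, was above background on at least 1 WT array and on none elsewhere. Of 3 macrophage markers tested, the replicate block called 1 higher in each mutant than in WT cells and 1 higher in WT than in GFP cells. Among all genes 15.5% (D1709N against WT), 12.7% (G1809R against WT) and 17.8% (WT against GFP) were called. The ranges of all 3 sums overlapped between WT and GFP cells. Tek and Lyz2 were each above background on some but not all WT arrays, and their part was not tested. The share of all probes above background was highest in WT replicate 1 (82.7%).

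Ordered by the smaller of a gene's measured gaps to WT, whether or not a gene was above background in the mutants, Stmn4 stood 4th of 24184 (3.03), Lrrc15 9th (2.61) and Fstl1 13th (2.47). Fabp4 is given no place, since both of its gaps rest on a floor. No numeric limit set the genes apart from others with like gaps. Just before Fstl1 came Tktl1, a transketolase-like enzyme, at 2.47, and after it Ifi207 at 2.41 and then Slc13a5, a citrate transporter, at 2.39. Of the genes tested, 1.66% were called between D1709N and WT cells and 1.64% between G1809R and WT cells (limma adjusted p under 0.05), or 15.5% and 12.7% with the replicate number as a block. Since those comparisons chose the 4 genes, nothing is read from these shares about them.

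**Figure D2:**
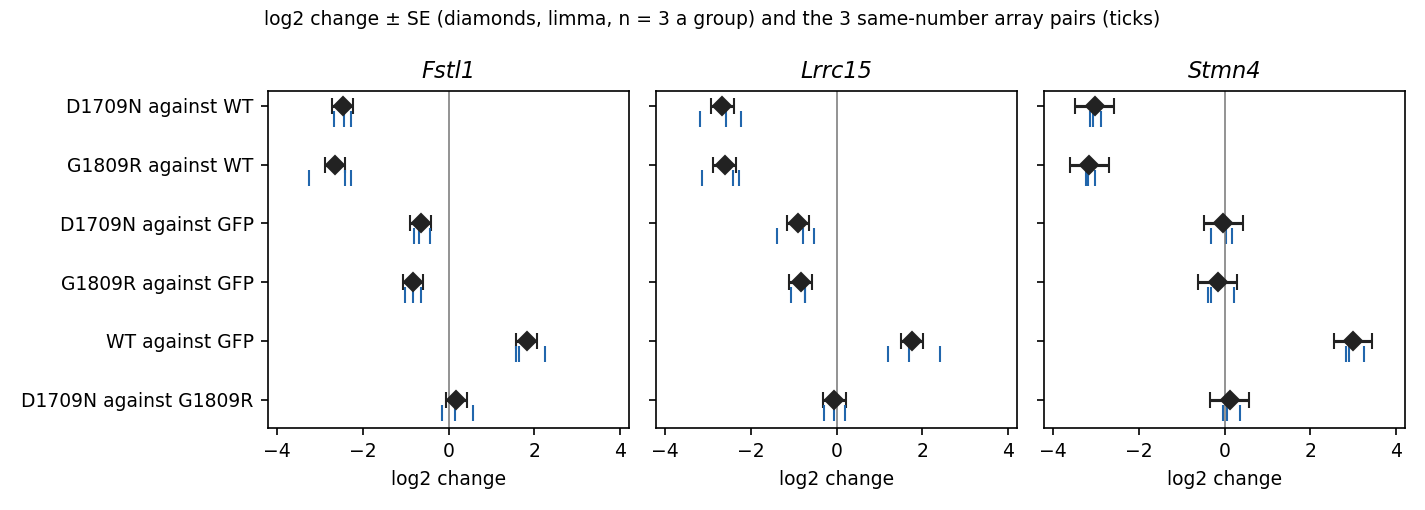
Log2 change (x axis) of Fstl1, Lrrc15 and Stmn4 in 6 comparisons, with diamonds and bars for the limma estimate ± SE (n = 3 arrays a group) and ticks for the 3 pairs of arrays that share a number. Both mutants sit between -3.15 and -2.47 against WT, and only Fstl1 and Lrrc15 have all ticks below 0 against GFP.

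Fstl1, Lrrc15 and Stmn4 were each called higher in WT than in GFP cells, 3 of 3 tested, where 2.95% of all genes were called in either direction (287 higher and 426 lower). With the replicate block the adjusted p was 0.000594 for Fstl1, 0.00163 for Lrrc15 and 3.1e-05 for Stmn4, where 17.8% of all genes were called. These counts share the WT arrays with the choice of the genes and are not independent evidence.

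The difference between the mutants was not itself a criterion of that choice. The choice asked for large gaps in both mutants, so the comparison of the mutants is not free of it. No gene was called between D1709N and G1809R cells by limma (0% of those tested, 65 at an unadjusted p under 0.05), and with the replicate block none was either (0%, 1063 at an unadjusted p under 0.05). Fstl1 differed by log2 0.18 (95% interval -0.36 to 0.72), Lrrc15 by -0.05 (-0.63 to 0.52) and Stmn4 by 0.12 (-0.88 to 1.13), each with an adjusted p of 1.00. Their arrays overlapped between the mutants for all 3 genes. Intervals from the fit by group alone leave room for up to 0.72 in Fstl1, 0.63 in size in Lrrc15 and 1.13 in Stmn4. The SE in that fit was 0.24 for Fstl1, 0.26 for Lrrc15 and 0.45 for Stmn4. With the replicate block it was 0.17, 0.22 and 0.12 in that order. Alike levels are not shown. Fabp4 intensity was 4.81 to 10.6 in D1709N cells and 3.14 to 5.18 in G1809R cells, with no array of either well above background.

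The mutants were set against GFP to ask whether they left the genes at the level of cells without a DICER1 plasmid. Fstl1 was lower than in GFP cells by 1.57-fold in D1709N (log2 -0.65, 95% interval -1.19 to -0.11, limma adjusted p = 0.577) and by 1.78-fold in G1809R cells (log2 -0.83, -1.37 to -0.29, adjusted p = 0.499). Every mutant array lay below every GFP array, with 0.19 log2 units between the nearest D1709N and GFP arrays and 0.34 between the nearest G1809R and GFP arrays. Neither difference passed the test over all genes, in which 0.0496% of genes were called for D1709N and 0.0124% for G1809R. With the replicate block Fstl1 was called lower in G1809R cells (limma adjusted p = 0.0408) and not in D1709N cells (0.0751), where 3.74% and 4.25% of genes were called. A difference between the mutants in this respect was not shown by the direct test above.

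Lrrc15 showed the same separation from GFP on the main scale. It was 1.86-fold lower in D1709N (log2 -0.90, 95% interval -1.47 to -0.32, limma adjusted p = 0.411) and 1.79-fold lower in G1809R than in GFP cells (log2 -0.84, -1.42 to -0.26, adjusted p = 0.517). The nearest arrays were 0.51 and 0.45 log2 units apart, and with the replicate block the adjusted p was 0.0578 for D1709N and 0.0736 for G1809R. With normexp the Lrrc15 gap to GFP was -0.39 (SE 0.3) in each mutant. After quantile normalization it was -0.89 in D1709N and -0.88 in G1809R cells, each with an SE of 0.53. Stmn4 differed from GFP by -0.03 in D1709N (95% interval -1.04 to 0.97) and by -0.16 in G1809R cells (-1.16 to 0.85), with overlapping arrays and an adjusted p of 1.00 for each. All 3 genes therefore gave 0 calls against GFP in either mutant without the block. For Stmn4 the SE fell from 0.45 to 0.12 in each mutant with the block. The mutant arrays of these comparisons had also entered the choice of the genes.

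By group mean, the order was WT, then GFP, then D1709N, then G1809R for Fstl1, and WT, GFP, G1809R and D1709N for Lrrc15. WT stood apart from its neighbour by more than the spread of arrays in both, and the mutants overlapped each other. GFP lay above the mutants without overlap, but without a call in the fit by group alone. With the replicate block Fstl1 was called lower in G1809R than in GFP cells (limma adjusted p = 0.0408). For Stmn4 the order was WT, GFP, D1709N and G1809R, of which only WT stood apart.

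Related genes were taken from 8 lists of families and pathways, each counted without its member among the 4. Over all genes the median log2 change was -0.007 for D1709N against WT, 0.007 for G1809R against WT and 0.043 for WT against GFP. Counts of called list genes are to be read against 1.66%, 1.64% and 2.95% of all genes called in these comparisons, or 15.5%, 12.7% and 17.8% with the replicate block. Against these medians, the follistatin and SPARC family had 5 of 11 listed genes tested, with medians of -0.67, -0.72 and -0.34 in the same 3 comparisons. The 5 include Spock2, which passed the filter only through GFP cells. It was above background on 0 D1709N, 1 G1809R and 1 WT arrays, and its own WT against GFP change was the median of -0.34. Smoc2 (0.51 in D1709N and 0.35 in G1809R against WT) and Sparc lay above WT in both mutants, so the medians do not describe the family as a whole. Fstl3, a binder of activin and myostatin, was called higher in WT than in GFP cells (log2 0.94, SE 0.15, limma adjusted p = 0.0139). It averaged 0.40 in D1709N, 0.34 in G1809R, 1.06 in WT and 0.12 in GFP cells. No family member was called between a mutant and WT in the fit by group alone, while among 20 other settings Fstl3 was called in 2 for D1709N and 6 for G1809R. With the replicate block, Fstl3 was lower in D1709N (adjusted p = 0.00389) and G1809R (0.00307) than in WT cells, as was Fst, the activin antagonist follistatin (0.00270 for D1709N and 0.00184 for G1809R). Fst averaged -1.91 ± 1.28 in D1709N, -2.05 ± 0.90 in G1809R, -0.54 ± 0.85 in WT and -0.53 ± 1.18 in GFP cells (SD, n = 3 each), and its WT and GFP means differed by -0.01 (SE 0.79). Sparc, a collagen-binding matrix protein, ran the other way, at 7.47 in D1709N, 7.32 in G1809R, 6.81 in WT and 7.29 in GFP cells, and with the block was higher in both mutants than in WT cells (adjusted p = 0.00576 for D1709N and 0.0173 for G1809R).

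Of the BMP and activin genes, the ligands, receptors and targets among which Fstl1 acts, 23 of 27 were tested. Acvr2b, an activin receptor, was the 1 called gene of the list, higher than in WT by 1.13 in D1709N (SE 0.13, limma adjusted p = 0.00657) and by 0.93 in G1809R cells (SE 0.13, adjusted p = 0.0137) and lower in WT than in GFP cells by log2 -1.17 (SE 0.13, adjusted p = 0.00390). The list medians were 0.02, -0.09 and -0.01 in the comparisons of D1709N with WT, G1809R with WT and WT with GFP. With the replicate block 3 genes were higher and 4 lower in each mutant against WT, and 6 were higher and 4 lower in WT against GFP. Among them Id3, a transcriptional target of BMP signalling, averaged -0.22 in D1709N, -0.29 in G1809R, 0.44 in WT and -0.88 in GFP cells.

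Of the TGF-beta and fibroblast matrix genes, the setting in which Lrrc15 is known, 24 of 31 were tested. Tgfb2, a TGF-beta ligand, was lower than in WT cells by log2 -1.92 in D1709N (SE 0.29, limma adjusted p = 0.0181) and -1.92 in G1809R cells (SE 0.29, adjusted p = 0.0161). Cthrc1, a secreted collagen-associated protein, was lower by -1.59 in D1709N (adjusted p = 0.0266) and -1.63 in G1809R cells (adjusted p = 0.0235). Pdgfrb, a growth factor receptor of mesenchymal cells, was called lower in D1709N cells (-1.11, adjusted p = 0.0342), and was at -0.86 in G1809R cells (adjusted p = 0.0891, or 0.00617 with the replicate block). The D1709N call of Pdgfrb held under 4 of 20 other settings, and the change was -0.68 with the authors' deposited table (adjusted p = 0.573) and -0.32 with normexp (adjusted p = 0.563). The receptor Tgfbr2 was higher in D1709N (0.79, adjusted p = 0.0358) and G1809R cells (0.76, adjusted p = 0.0408) than in WT cells, calls that held under 6 and 3 of 20 other settings. That is 1 gene higher and 3 lower for D1709N, and 1 higher and 2 lower for G1809R, at medians of -0.37 and -0.27, and with the replicate block 5 higher and 8 lower in each mutant. Between WT and GFP cells, Comp, a cartilage matrix protein, was higher (0.83, adjusted p = 0.0495), while Pdgfra (-0.91, adjusted p = 0.00740) and Tgfbr2 (-0.69, adjusted p = 0.0438) were lower in WT, at a median of 0.10. The call of Comp held under 3 of 20 other settings, and the replicate block called 5 genes higher and 4 lower in WT.

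Of 18 leucine-rich repeat genes besides Lrrc15, 9 were tested. Lrtm2 was the 1 called, higher in D1709N than in WT cells (0.69, limma adjusted p = 0.0487) and lower in WT than in GFP cells (-0.65, adjusted p = 0.0462). These calls held under 4 and 5 of 20 other settings. Its change in G1809R cells was 0.55 (adjusted p = 0.108, or 0.00488 with the replicate block), and the medians were -0.13, -0.01 and 0.04 for D1709N against WT, G1809R against WT and WT against GFP. The block called 1 gene of the list higher and 3 lower in each mutant against WT, and 2 higher and 1 lower in WT against GFP.

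Among the other stathmins, Stmn1, the widely expressed stathmin of dividing cells, was called higher in D1709N (0.77, SE 0.14, limma adjusted p = 0.0263) and in G1809R cells (0.65, SE 0.14, adjusted p = 0.0477) than in WT cells, opposite in sign to Stmn4. The G1809R call held under 3 of 20 other settings and was lost under every other scaling and without any 1 array of either group (adjusted p 0.0683 to 0.162), and the D1709N call held under 11. Stmn1 averaged 5.12 ± 0.04 in D1709N, 5.0 ± 0.12 in G1809R, 4.35 ± 0.13 in WT and 4.79 ± 0.23 in GFP cells (SD, n = 3 each). Stmn3, also neuronal, was at -0.89 in D1709N and -0.92 in G1809R against WT and 0.42 in WT against GFP, with no call. Under the replicate block it was called lower in both mutants than in WT cells (adjusted p = 0.0352 for D1709N and 0.0345 for G1809R). These were 2 of the 3 other stathmins listed. Of 16 neuronal genes 12 were tested and none was called in any of these comparisons, at medians of -0.10, -0.32 and 0.23. Under the replicate block 2 of the 12 were called lower in D1709N and 3 in G1809R than in WT cells, Mapt (tau) and Tubb3, a neuronal tubulin, in both, and none higher. Other members had values of the opposite sign: Syt1, a synaptic vesicle protein, was at 1.40 in D1709N and 1.17 in G1809R against WT and at -1.19 in WT against GFP, with no call, and was above background on 1 of 3 WT arrays.

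Carriers related to Fabp4 were tested in 7 of 14 cases. Crabp2, a retinoic acid carrier, was called higher in WT than in GFP cells (1.12, SE 0.20, limma adjusted p = 0.0193) and averaged 1.96 in D1709N, 1.86 in G1809R, 2.70 in WT and 1.58 in GFP cells. No relative was called between a mutant and WT in the fit by group alone, while among 20 other settings Crabp2 was called in 2 for D1709N and 3 for G1809R. With the replicate block, Crabp2 and the muscle form Fabp3 were lower in both mutants than in WT cells and higher in WT than in GFP cells. The list medians were -0.74 for D1709N against WT, -0.84 for G1809R against WT and 0.81 for WT against GFP. Fabp5, the epidermal form, differed by 0.14 in D1709N and 0.15 in G1809R cells against WT and by 0.00 between WT and GFP cells, with no call under any of 20 other settings. Of 20 adipocyte genes 13 were tested and none was called, at medians of -0.06, -0.07 and 0.13. The block called Cebpd lower in G1809R than in WT cells, and Dgat2 and Pnpla2 higher in WT than in GFP cells. Pparg, the adipocyte regulator of Fabp4, was at -1.71 in D1709N, -1.79 in G1809R, -1.97 in WT and -1.92 in GFP cells.

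**Figure D3:**
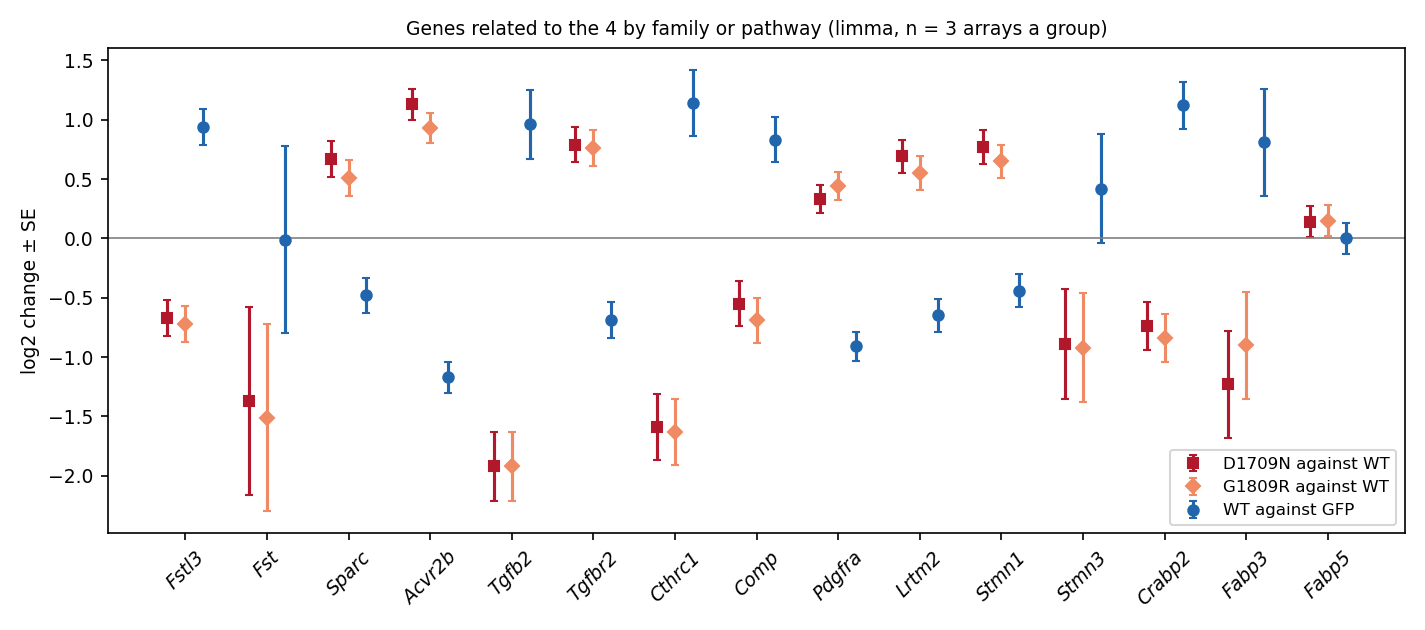
Log2 change ± SE (y axis; limma, n = 3 arrays a group) of 15 genes related to the 4 by family or pathway, with squares for D1709N against WT, diamonds for G1809R against WT and circles for WT against GFP. Tgfb2 and Cthrc1 lie furthest below 0 in both, and Fabp5 lies near 0 throughout.

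Against GFP, no gene of the 8 lists was called in D1709N or G1809R cells without the replicate block. With it, where 4.25% and 3.74% of all genes were called, Fst, Tgfb2, Pdgfra, Acta2, Col1a2, Acvr1b and Rest were called lower in both mutants, and Id1 and Id3 higher in both. Tubb3 was called higher in D1709N cells. Fst was at -1.38 in D1709N and -1.52 in G1809R, and Tgfb2 at -0.95 in D1709N and -0.96 in G1809R. Id1, a BMP target like Id3, was at 0.86 in D1709N and 0.75 in G1809R cells, the opposite sign to Fst. This Id1 change was not particular to the mutants, as WT cells were at 0.85 against GFP (limma adjusted p = 0.00135 with the replicate block).

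For each of the 4 genes, the 3 genes with the highest Pearson r over the 12 arrays were named among 14005 genes with a symbol. The arrays share slides and a WT group that stands apart, so r is also given over the 9 arrays without WT, and both are descriptions. Fstl1 was most like Cnnm2, a magnesium-handling membrane protein (r = 0.966, and 0.902 without WT), Smox, spermine oxidase (0.965 and 0.824), and Ddah2 (0.965 and 0.772). Lrrc15 was most like Rbp4, the plasma retinol carrier (0.980 and 0.953), Plcd1, a phospholipase C (0.980 and 0.844), and P2ry2, a nucleotide receptor (0.978 and 0.873). Rbp4 averaged -0.03 ± 0.15 in D1709N, 0.02 ± 0.01 in G1809R, 1.89 ± 0.14 in WT and 0.77 ± 0.08 in GFP cells (SD, n = 3 each), with GFP between the mutants and WT as in Lrrc15.

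Stmn4 was most like Ptk2, the focal adhesion kinase (0.982 and 0.832), Arhgap8 (0.971 and 0.742), and Rimbp3 (0.968 and 0.824). Ptk2 spanned a far smaller range, at 1.84 in D1709N, 1.85 in G1809R, 2.21 in WT and 1.83 in GFP cells. Fabp4, whose 9 arrays outside WT were not above background, was most like Lgi2 (0.955 and 0.738), Aqp5, a water channel (0.953 and 0.724), and Slc45a1 (0.947 and 0.598). Aqp5 averaged -3.10 in D1709N, -3.26 in G1809R, -1.44 in WT and -3.39 in GFP cells and was above background on all 12 arrays.

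**Figure D4:**
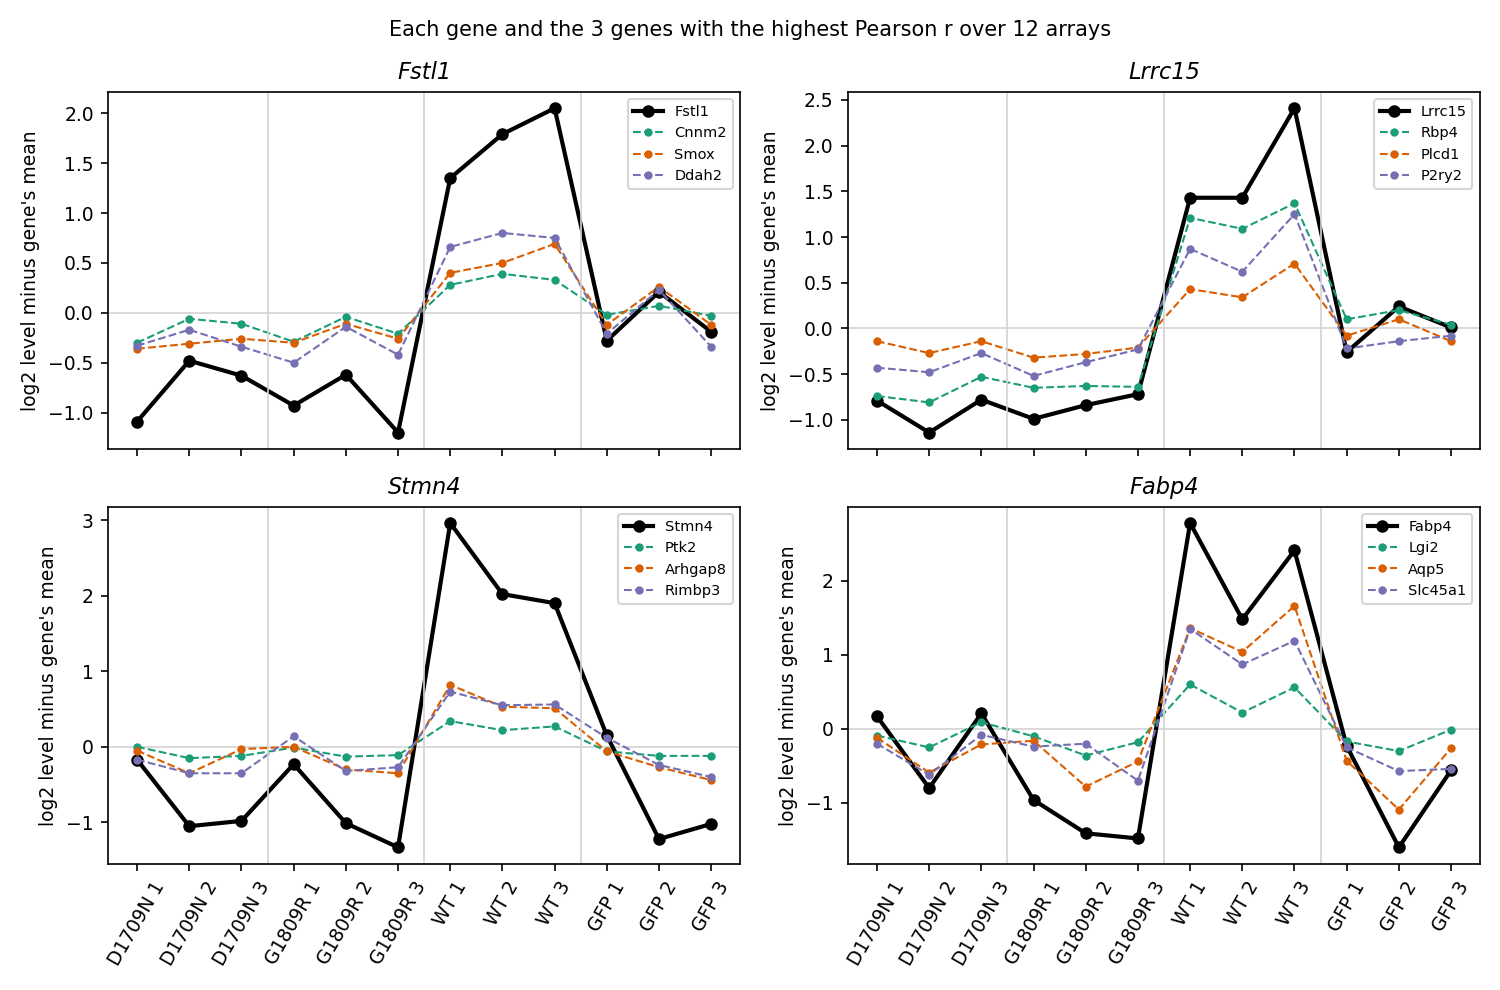
Log2 level minus the mean of the gene over the 12 arrays (y axis) for each of the 4 genes (black) and the 3 genes most like it by Pearson r (dashed), array by array with the groups in the order D1709N, G1809R, WT and GFP (x axis). All lines step up in the 3 WT arrays, and the companions of each of the 4 genes do so by less than the gene itself.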

How the data were processed

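RNA of DKO172 cells was measured on 12 Agilent 1-colour arrays, 3 for each of 4 groups. Per the labels' protocols, 200000 cells per well received 2 µg of plasmid, were moved to new plates at 24 h, then selected for 84 h with hygromycin (300 µg/ml) until 108 h, and 100 ng of RNA was labelled with Cy3. The deposited scanner files hold processed intensity per spot from Agilent Feature Extraction 11.0.1.1 (per the submitters' processing notes), background-subtracted, per the file headers, with flags scored 0 or 1 as another kind of value. A deposited series table gives log2 values for 31362 probes, whose scaling and centring are not given in the sources used here. It served only as an alternative.

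From each array's log2 intensity, the 75th percentile over its 59305 non-control spots was subtracted. Spots of a probe were averaged without outlier-flagged ones (287 of 55681 probes left out). No non-control spot was saturated. The filter kept 33024 probes that were well above background on all arrays of some group, and each of 24184 genes or transcripts was represented by its brightest probe on average. Probes were named through RefSeq accessions, and the 5 probes of the 4 genes have the accessions of those genes. Tests used limma (version 3.58.1, R 4.3.3, files read with the package data.table, version 1.17.8), with the 12 arrays in 1 fit and group as the only factor, Benjamini-Hochberg adjustment over all genes and a threshold of 0.05, two-sided. The number of arrays limits the precision, and signal over background limits it for Lrrc15 and Fabp4.

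The 4 genes, the lists and the tests were chosen with earlier results of these data known. Named genes of a list are up to 3 called ones with the largest change, or the best known relatives where none was called. Further ones named, such as Tgfbr2 in D1709N cells, Id1, Id3, Tubb3, Mapt, Syt1, Acta2, Col1a2, Acvr1b, Cebpd, Dgat2, Pnpla2, Rest, Spock2 and Smoc2, were chosen after their values were seen. A further gene of the lists is not reported here. Replicate numbers come from the labels. Deviations from the group means correlated at 0.601 to 0.853 in all 18 same-number pairs of arrays, and 12 of 12 arrays correlated best with their own number, so the numbers were taken to pair the samples and replicate block values are given where they change a call. Alternatives were quantile normalization, normexp (offset 50, on median in place of mean signals) with quantile normalization, no filter, slide or replicate number as a block, each slide alone, only the groups compared, the deposited table, and each array left out. List genes were run under these alternatives after their values were seen. The script was tested on simulated data.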

Additional observations from a re-analysis of the deposited data

How the results depend on the processing

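The signs of the gaps of Fstl1, Lrrc15, Stmn4 and Fabp4 between the mutants and WT, and between WT and GFP, held under every alternative. Each result had 20 to 22 alternatives. These genes were chosen by their gaps to WT on the same arrays, so the signs of those gaps were largely set beforehand. The WT against GFP signs share the WT arrays with that choice. For Fabp4 only the WT arrays were well above background. The kept signs are therefore not independent evidence. The gaps to WT ran from -2.66 to -2.29 (D1709N) and -2.84 to -2.28 (G1809R) for Fstl1, and from -3.31 to -2.69 (D1709N) and -3.46 to -2.81 (G1809R) for Stmn4. With normexp, Lrrc15 was at -1.41 in each mutant against WT, and Fabp4 at -0.38 in D1709N and -0.55 in G1809R against WT and 0.53 in WT against GFP. Fabp4 in G1809R against WT was -2.62 after quantile normalization and -2.62 in the deposited table. On slide 1 alone, Lrrc15 was at -2.22 in D1709N against WT and -0.53 in D1709N against GFP, Fstl1 at -2.28 in G1809R against WT, and D1709N against G1809R gave -0.16 for Fstl1 and 0.20 for Lrrc15. For WT against GFP, limma's adjusted p exceeded 0.05 with only those groups in the fit (0.0994 for Fstl1, 0.132 for Lrrc15, 0.118 for Stmn4), where fewer arrays estimate the spread, on slide 2 alone (0.0694 for Fstl1, 0.1003 for Lrrc15), and, for Lrrc15, with the deposited table (0.158), normexp (0.0984) and quantile normalization (0.169). The cause was not tested. Leaving out each array in turn gave 0.0143 to 0.0583 for Stmn4, the highest without GFP replicate 3. The replicate block made 1 more call among the 3 tested genes, Fstl1 in G1809R against GFP (0.0408), and ended none.

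The number of genes called, in the order D1709N against WT, G1809R against WT, D1709N against GFP, G1809R against GFP and WT against GFP, was 402, 397, 12, 3 and 713. With the replicate block it was 3759, 3064, 1027, 904 and 4300, with slide as a block 1407, 1206, 97, 63 and 2112, with no filter 55, 68, 2, 1 and 206, on slide 2 alone 3, 11, 1, 1 and 3, and with only the groups compared 0, 0, 0, 1 and 3. With normexp G1809R against GFP gave 5. Leaving out 1 array gave 41 to 307 for D1709N against WT, 70 to 314 for G1809R against WT, 2 to 8 for D1709N against GFP, 1 to 2 for G1809R against GFP and 146 to 601 for WT against GFP. For D1709N against WT the count fell by over 1.5 times without any D1709N array (106, 41 and 83 for replicates 1 to 3), WT replicates 1 (84) and 2 (89), G1809R replicates 1 (265) and 3 (266) and GFP replicate 3 (248). For G1809R against WT it did so without any G1809R array (107, 70 and 102) or WT array (128, 105 and 226). For WT against GFP it did so without any GFP array (201, 386 and 146), WT replicates 1 (290) and 2 (226) and D1709N replicate 3 (443). D1709N against G1809R gave 0 calls under all of these. Of the related genes, signs held for every called gene, and the call of Acvr2b for WT against GFP held under 18 of 20 alternatives, of Pdgfra under 18, of Fstl3 under 16, of Crabp2 under 12, of Tgfbr2 under 6, of Lrtm2 under 5 and of Comp under 3. Against WT, the calls of Acvr2b held under 18 (D1709N) and 14 (G1809R) of 20 alternatives, of Tgfb2 under 13 and 14, of Cthrc1 under 10 and 10, of Stmn1 under 11 and 3 and of Tgfbr2 under 6 and 3, and in D1709N alone of Pdgfrb under 4 and of Lrtm2 under 4.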

Other observations

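The nearest tested protein-coding genes on each side of the 4 were looked up by name, a choice made after the values were seen. Beyond Trim35 on one side of Stmn4 lies Ptk2b, a kinase related to the focal adhesion kinase. Ptk2b was called higher in WT than in GFP cells (log2 0.74, SE 0.16, limma adjusted p = 0.0399) and was at -0.46 in G1809R against WT cells (adjusted p = 0.236). Trim35 itself was at 0.19 in WT against GFP cells. Trim35, Dpysl2 and Pnma2, the other neighbours of Stmn4, had no call in any of the 6 comparisons. On one side of Fstl1, Ndufb4 was at 0.02 in WT against GFP cells. Beyond it Hgd, the homogentisate dioxygenase, was at 1.54 with an SE of 0.77 and no call (limma adjusted p = 0.397). On one side of Lrrc15, Hes1 and, beyond it, Opa1 were at 0.37 and -0.12 in WT against GFP cells, with no call. Fabp5 and Fabp12 lie beside Fabp4, at 0.00 and 0.94 in WT against GFP cells (adjusted p = 0.999 and 0.678).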
